A study of Mus musculus with 8 samples.

Results

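The levels of 10 genes that T cells switch on soon after their antigen receptor (TCR) is engaged are given here: the nuclear receptor genes Nr4a1, Nr4a2 and Nr4a3, the zinc-finger genes Egr1, Egr2 and Egr3, the AP-1 genes Fos and Jun, the interferon regulatory factor gene Irf4, and the early surface marker Cd69. They were taken by name, with no threshold on their values, and all 10 were found among the 20170 genes of the count matrix. The cells were mouse splenic T cells, isolated as pan T cells from C57BL/6 mice 8 to 12 weeks old and profiled by droplet single-cell RNA-seq that reads transcript 3′ ends and counts unique molecular identifiers (UMIs). There were 8 libraries in 4 groups of 2, with WT and SDHA-KO cells each studied unstimulated and stimulated. SDHA-KO T cells came from mice in which floxed Sdha, the gene of the catalytic flavoprotein subunit of succinate dehydrogenase, is deleted by Cre under the CD4 promoter. That promoter is active in developing αβ T cells, so T cells that never expressed CD4, many γδ T cells among them, need not carry the deletion. Stimulated cells had been cultured for 48 h with soluble anti-CD3 at 5 μg/mL and anti-CD28 at 2.5 μg/mL, unstimulated cells had been cultured without these antibodies, and dead cells were removed from both. The labels do not say whether the replicates of a group are separate mice, so each p-value measures the spread between these libraries, which may be technical.

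Engagement of the TCR opens calcium and ERK signaling within minutes, and the genes studied here are among the first to be transcribed, since the factors that switch them on (NFAT, SRF with its ternary complex partners, CREB and the AP-1 proteins themselves) are already present in the resting cell. Their transcripts are short-lived, so a level that is high long after the stimulus began is often read as a sign of continued signaling. The NR4A receptors are orphan nuclear receptors, of which Nr4a1 is widely used as a reporter of TCR signal strength. The EGR factors follow ERK and NFAT, and Egr2 and Egr3 also restrain T cell activation. Fos and Jun proteins pair to form AP-1, which partners NFAT on cytokine genes. IRF4 is made in proportion to TCR signal strength and supports the expansion and metabolic change of effector cells. CD69 is a C-type lectin that removes the egress receptor S1PR1 from the cell surface.

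The bases just upstream of 4 of the genes, Nr4a1, Nr4a3, Fos and Jun, are shown as examples of elements through which such signals can act. No link between these elements and the levels at 48 h was tested. Each is the 250 bases before the transcription start, 5′ to 3′ on the strand of the gene, from RefSeq on GRCm38.p6. Capitals mark every match, on either strand, to TGACG (the core of the cAMP response element, CGTCA on the other strand), TGACNTCA (an AP-1 or ATF element), GGGCGG (the GC box, CCGCCC on the other strand) and TATAAA (the TATA box).
Nr4a1, chr15:101266596-101266845, plus strand: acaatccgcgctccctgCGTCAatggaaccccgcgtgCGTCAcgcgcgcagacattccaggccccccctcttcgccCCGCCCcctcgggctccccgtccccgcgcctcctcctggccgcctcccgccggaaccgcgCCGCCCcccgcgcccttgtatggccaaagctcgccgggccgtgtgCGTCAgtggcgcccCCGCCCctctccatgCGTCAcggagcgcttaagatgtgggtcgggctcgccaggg
Nr4a3, chr4:48045055-48045304, plus strand: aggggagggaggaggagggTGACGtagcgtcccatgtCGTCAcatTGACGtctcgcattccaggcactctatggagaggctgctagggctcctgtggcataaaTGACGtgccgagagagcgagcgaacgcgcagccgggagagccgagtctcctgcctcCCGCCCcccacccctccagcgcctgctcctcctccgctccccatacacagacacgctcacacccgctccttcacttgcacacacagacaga
Fos, chr12:85473640-85473889, plus strand: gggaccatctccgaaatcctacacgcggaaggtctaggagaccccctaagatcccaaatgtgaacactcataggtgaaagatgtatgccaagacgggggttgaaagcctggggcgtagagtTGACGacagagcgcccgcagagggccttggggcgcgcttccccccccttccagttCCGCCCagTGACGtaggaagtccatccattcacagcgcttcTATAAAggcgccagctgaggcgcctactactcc
Jun, chr4:95052223-95052472, minus strand: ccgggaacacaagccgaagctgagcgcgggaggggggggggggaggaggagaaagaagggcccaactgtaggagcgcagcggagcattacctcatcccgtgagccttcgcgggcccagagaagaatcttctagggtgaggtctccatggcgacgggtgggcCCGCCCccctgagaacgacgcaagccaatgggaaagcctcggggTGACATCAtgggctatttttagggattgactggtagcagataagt
In these windows TGACG matched 4 times at Nr4a1, 4 times at Nr4a3 and 2 times at Fos, while Jun had none and instead held 1 match to TGACNTCA, 45 to 38 bases before its start. Of the 10 genes, 7 were in the promoter table (all but Egr1, Egr3 and Cd69). TGACG was in 5 of those 7 (Nr4a1, Nr4a2, Nr4a3, Egr2 and Fos) and in 17.8% of all 32851 promoter windows of this length, TGACNTCA was in Jun alone and in 7.49% of all, TATAAA was in Nr4a2, Fos and Irf4 and in 12.4% of all, and GGGCGG was in all 7 and in 32.7% of all. Within these windows the CArG box, which SRF binds, was matched in Egr2 alone and in 1.47% of all. Bases farther upstream were not searched, so a missing match does not show that a gene lacks the element. A match is a description of letters in the window and does not show binding.

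The libraries held 10947009 to 51398728 UMIs in 1395 to 1801 cells each. UMIs were summed per library over the cells that the authors placed in the CD4 class (859 to 1315 cells) or the CD8 class (325 to 844 cells), and levels are given below as CPM, the usual scaling of a gene's UMIs to all UMIs of the sum, corrected by TMM, which adjusts for composition, except where plain CPM is named. Levels of different genes are not compared, because 3′ counts depend on each transcript's end. Both classes held T cell genes throughout: the summed CPM of 6 T cell markers lay between 2226 and 5239, with no marker at 0. Other features moved with the groups. Median UMIs per cell rose from 7572 and 8085.5 in unstimulated WT to 13809 and 13745 in stimulated WT and 25116.5 and 25465.5 in stimulated SDHA-KO. Cells with under 10% mitochondrially encoded UMIs made up 31.8% and 35.5% of stimulated WT against 80.1% and 83.9% of stimulated SDHA-KO cells. Tem cells, the effector memory subtype of the authors, made up 37.1% and 38.6% of stimulated WT against 79.2% and 82.6% of stimulated SDHA-KO CD4 cells. A UMI of Trdc, the γδ TCR constant gene, was in 3.7% and 4.9% of stimulated WT and 59.1% and 56.1% of stimulated SDHA-KO cells of the CD8 class, so that class is not made up of CD8 αβ T cells alone in SDHA-KO. The 6 B cell markers summed to 345 CPM in the CD8 class of stimulated SDHA-KO replicate 1, of which Igkc made up 227 CPM, and to 64.1 CPM in that of replicate 2, against 53.7 and 50.0 CPM in stimulated WT, where Ms4a1 was at 0. The part of such cells in the results was not tested, and the values without that library are given below.

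Sdha itself, which checks the labels, lay at 100.5 and 100.1 CPM in unstimulated WT CD4 cells against 49.8 and 49.4 CPM in their SDHA-KO counterparts, and after stimulation at 74.0 and 73.1 against 26.5 and 26.4 CPM. In the CD8 class it lay at 91.4 and 95.7 against 39.0 and 37.6 CPM before stimulation, and after it, with a smaller gap, at 76.2 and 74.9 against 53.3 and 50.4 CPM. Both SDHA-KO libraries were below both WT libraries each time.

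Stimulation for 48 h left 7 of the 10 genes higher in the sums of WT CD4 cells and of WT CD8 cells alike: all 3 NR4A genes, all 3 EGR genes and Irf4. Fos and Jun were lower in both classes, and Cd69 passed the test in neither. Against this, 36.2% of the 14264 genes tested in CD4 cells were called higher and 30.1% lower, and 35.5% and 30.3% of the 13095 genes in CD8 cells, by edgeR's quasi-likelihood test at a Benjamini-Hochberg adjusted p below 0.05. The median log2 fold change of the members was 1.45 in CD4 and 1.47 in CD8 cells, against medians of 0.08 and 0.09 over all genes. Without the TMM correction the median of all genes moved by 0.22 in CD4 and 0.48 in CD8 cells, and the share of calls that were higher moved from 54.6% to 65.4% and from 54.0% to 75.6%. Under that scaling the same 7 directions held in both classes, the fall of Jun in CD8 cells was no longer called (−0.08), and Cd69 in CD8 cells had a positive value that was not called (0.13).

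**Figure D1:**
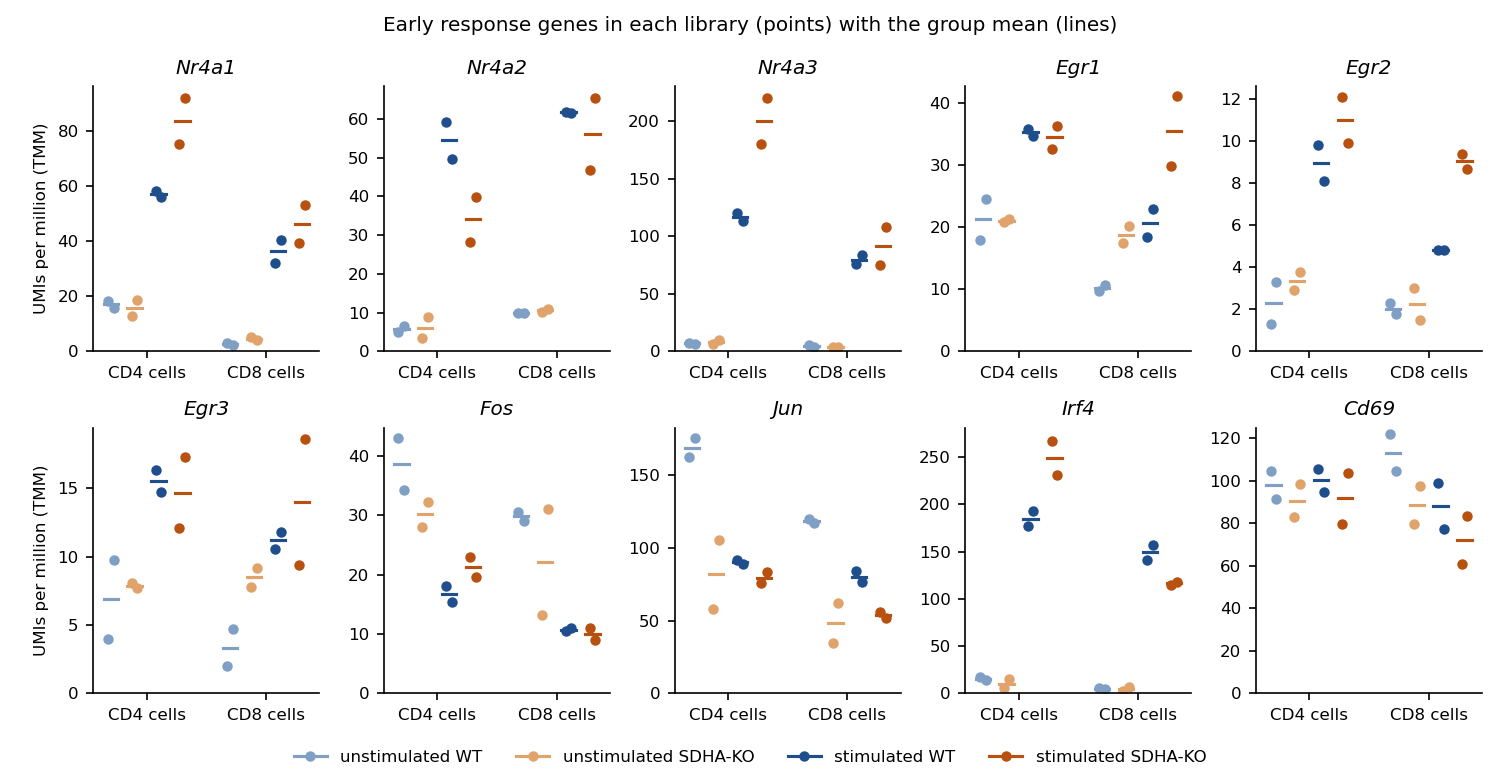
Levels of the 10 genes in each of the 8 libraries, in TMM CPM on a linear axis, 1 panel a gene, with CD4 and CD8 cells shown apart. Each point is 1 library and each line a group mean. The NR4A genes and Irf4 lie higher in every stimulated library than in any unstimulated one of the same class, while Fos lies lower.

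Among the NR4A genes in WT cells, Nr4a3 showed the largest log2 change. In CD4 cells it lay at 7.22 and 6.59 CPM in unstimulated WT and at 119.8 and 113.3 CPM in stimulated WT (log2 fold change 4.08, SE 0.17, edgeR adjusted p = 2.94e-09). In CD8 cells it went from 5.14 and 4.02 CPM to 75.4 and 83.4 CPM (4.13, SE 0.25, edgeR adjusted p = 6.32e-08). Unstimulated and stimulated libraries did not come near each other for this gene. Nr4a1 went from 18.4 and 15.7 CPM to 58.1 and 55.9 CPM in WT CD4 cells (1.74, SE 0.16, edgeR adjusted p = 2.39e-06). In WT CD8 cells Nr4a1 started lower, at 3.14 and 2.23 CPM, and reached 32.2 and 40.4 CPM (3.78, SE 0.29, edgeR adjusted p = 5.06e-07). Nr4a2, the third orphan receptor, went from 5.13 and 6.59 CPM to 59.3 and 49.8 CPM in WT CD4 cells (3.21, SE 0.32, edgeR adjusted p = 3.84e-06) and from 10.0 and 9.82 CPM to 61.7 and 61.6 CPM in WT CD8 cells (2.64, SE 0.19, edgeR adjusted p = 3.14e-07). No NR4A gene overlapped between the unstimulated and stimulated WT libraries. Here and below, the share of all genes without such overlap was not counted. The order of libraries is therefore given as a description only.

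All 3 EGR genes rose in both classes, by log2 changes of 0.72 to 1.94. Egr1 went from 18.0 and 24.6 CPM to 35.8 and 34.7 CPM in WT CD4 cells (0.72, SE 0.13, edgeR adjusted p = 0.00047) and from 9.71 and 10.7 CPM to 18.4 and 22.8 CPM in WT CD8 cells (1.01, SE 0.23, edgeR adjusted p = 0.00218). Egr2 went from 1.28 and 3.30 CPM to 9.79 and 8.11 CPM in WT CD4 cells (1.94, SE 0.31, edgeR adjusted p = 0.00017) and from 2.28 and 1.78 CPM to 4.82 and 4.83 CPM in WT CD8 cells (1.26, SE 0.31, edgeR adjusted p = 0.00397). Egr3 went from 4.01 and 9.74 CPM to 16.4 and 14.7 CPM in WT CD4 cells (1.16, SE 0.29, edgeR adjusted p = 0.00406) and from 2.00 and 4.68 CPM to 10.6 and 11.8 CPM in WT CD8 cells (1.68, SE 0.44, edgeR adjusted p = 0.00554). Stimulated WT libraries were above unstimulated WT libraries for all 3, although the unstimulated replicates of Egr2 and Egr3 in CD4 cells and of Egr3 in CD8 cells differed by more than 2-fold from each other. In CD8 cells the call of Egr2 was lost without unstimulated WT replicate 2 and that of Egr3 without unstimulated WT replicate 1.

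The AP-1 genes moved the other way. Fos lay at 43.0 and 34.3 CPM in unstimulated and at 18.1 and 15.4 CPM in stimulated WT CD4 cells (−1.20, SE 0.14, edgeR adjusted p = 1.59e-05), and at 30.6 and 29.0 CPM against 10.5 and 11.1 CPM in WT CD8 cells (−1.47, SE 0.24, edgeR adjusted p = 0.000274). Jun lay at 162.0 and 175.0 CPM against 91.3 and 88.8 CPM in WT CD4 cells (−0.90, SE 0.19, edgeR adjusted p = 0.00123) and at 119.4 and 116.9 CPM against 83.8 and 76.5 CPM in WT CD8 cells (−0.56, SE 0.15, edgeR adjusted p = 0.00673). Both genes fell as a share of all UMIs, with no overlap between the groups. Per cell and without scaling the same libraries gave the opposite order, in cells that held more UMIs in all. Mean UMIs of Jun per CD4 cell were 1.08 and 1.23 in unstimulated WT and 2.91 and 2.83 in stimulated WT, and those of Fos were 0.287 and 0.241 against 0.577 and 0.491. The fall of Jun in CD8 cells lost its call without either unstimulated WT library.

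Irf4 had a rise of the same order as the NR4A genes. It lay at 17.2 and 14.4 CPM in unstimulated WT and at 177.2 and 192.7 CPM in stimulated WT CD4 cells (3.55, SE 0.24, edgeR adjusted p = 1.74e-07). In WT CD8 cells it went from 5.43 and 4.91 CPM to 141.2 and 157.2 CPM (4.86, SE 0.19, edgeR adjusted p = 2.22e-09), the largest log2 change of any member in that class. Cd69 lay at 104.5 and 91.5 CPM before and 105.7 and 94.7 CPM after stimulation in WT CD4 cells (0.03, SE 0.13, edgeR adjusted p = 0.842) and at 121.7 and 104.4 CPM against 99.0 and 77.0 CPM in WT CD8 cells (−0.36, SE 0.16, edgeR adjusted p = 0.0765). The groups overlapped in CD4 cells but not in CD8 cells, where Cd69 was called lower without stimulated WT replicate 1 (−0.55) or without either stimulated SDHA-KO library, which enters the estimate of the spread (−0.36 for each). As with Jun, mean UMIs of Cd69 per cell were higher after stimulation, at 0.699 and 0.642 against 3.37 and 3.02 per CD4 cell. With each cell thinned to 5000 UMIs, the share of WT cells with a Cd69 UMI was 28.5% and 27.3% before and 44.2% and 38.9% after stimulation in CD4 cells, and 32.4% and 30.4% against 42.2% and 37.3% in CD8 cells. That of Jun was 42.1% and 45.0% against 40.7% and 39.6% in CD4 cells and 33.3% and 32.2% against 41.5% and 37.0% in CD8 cells. Shares and CPM thus disagreed for Cd69, and for Jun in CD8 cells, so no order is read from these shares.

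In SDHA-KO cells stimulation also raised 7 members in CD4 cells, where 36.6% of all genes were called higher and 33.2% lower, and lowered 1, Fos. In the SDHA-KO CD8 class it raised 6 and lowered 1, against 37.2% and 30.9% of all genes. Without the TMM correction the share of calls that were higher moved from 52.4% to 62.8% in CD4 and from 54.6% to 66.3% in CD8 cells. The median of all genes then moved by 0.22 and 0.29 on the log2 scale, the call of Fos in CD4 cells was lost (−0.29), and in CD8 cells Egr3 (0.98) and Jun (0.44) gained a call as higher, giving 8. Nr4a3 rose from 6.62 and 9.53 CPM to 180.2 and 219.5 CPM in SDHA-KO CD4 cells (4.61, SE 0.15, edgeR adjusted p = 5.63e-10) and from 3.90 and 3.85 CPM to 75.4 and 107.8 CPM in the SDHA-KO CD8 class (4.56, SE 0.27, edgeR adjusted p = 4.62e-08). Irf4 rose from 5.65 and 14.8 CPM to 267.5 and 230.8 CPM in CD4 cells (4.57, SE 0.24, edgeR adjusted p = 2.07e-08) and from 2.40 and 6.81 CPM to 114.7 and 118.2 CPM in CD8 cells (4.65, SE 0.21, edgeR adjusted p = 5.26e-09). For Nr4a1 the log2 fold change was 2.41 in CD4 and 3.32 in CD8 cells, and for Nr4a2 it was 2.44 and 2.40. Those of Egr1 were 0.71 and 0.91 and those of Egr2 were 1.70 and 2.01, all called, while Egr3 was called in CD4 cells (0.90) but not in CD8 cells (0.70, SE 0.37, edgeR adjusted p = 0.116).

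Jun and Fos in SDHA-KO depended on which unstimulated library was kept. Jun lay at 58.2 and 105.2 CPM in unstimulated and at 75.5 and 83.0 CPM in stimulated SDHA-KO CD4 cells (−0.05, SE 0.19, edgeR adjusted p = 0.825). The 2 unstimulated libraries lay on either side of both stimulated ones, and the log2 fold change of Jun was −0.39 without unstimulated SDHA-KO replicate 1 and 0.47 without replicate 2, both called. In the CD8 class Jun lay at 34.5 and 61.9 CPM against 55.8 and 51.6 CPM (0.16, SE 0.18, edgeR adjusted p = 0.451), and it was called higher without replicate 2 (0.65). Fos fell in SDHA-KO CD4 cells, from 28.0 and 32.3 CPM to 22.9 and 19.6 CPM (−0.51, SE 0.14, edgeR adjusted p = 0.00577), and in the CD8 class, from 13.2 and 31.1 CPM to 11.0 and 8.91 CPM (−1.15, SE 0.27, edgeR adjusted p = 0.0031). Without unstimulated SDHA-KO replicate 2 neither fall of Fos was called (−0.38 and −0.40), and nor was the rise of Egr3 in CD4 cells. Egr3 in the CD8 class was called without stimulated SDHA-KO replicate 1 (1.12). Cd69 was not called in SDHA-KO CD4 (0.02) or CD8 cells (−0.30).

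**Figure D2:**
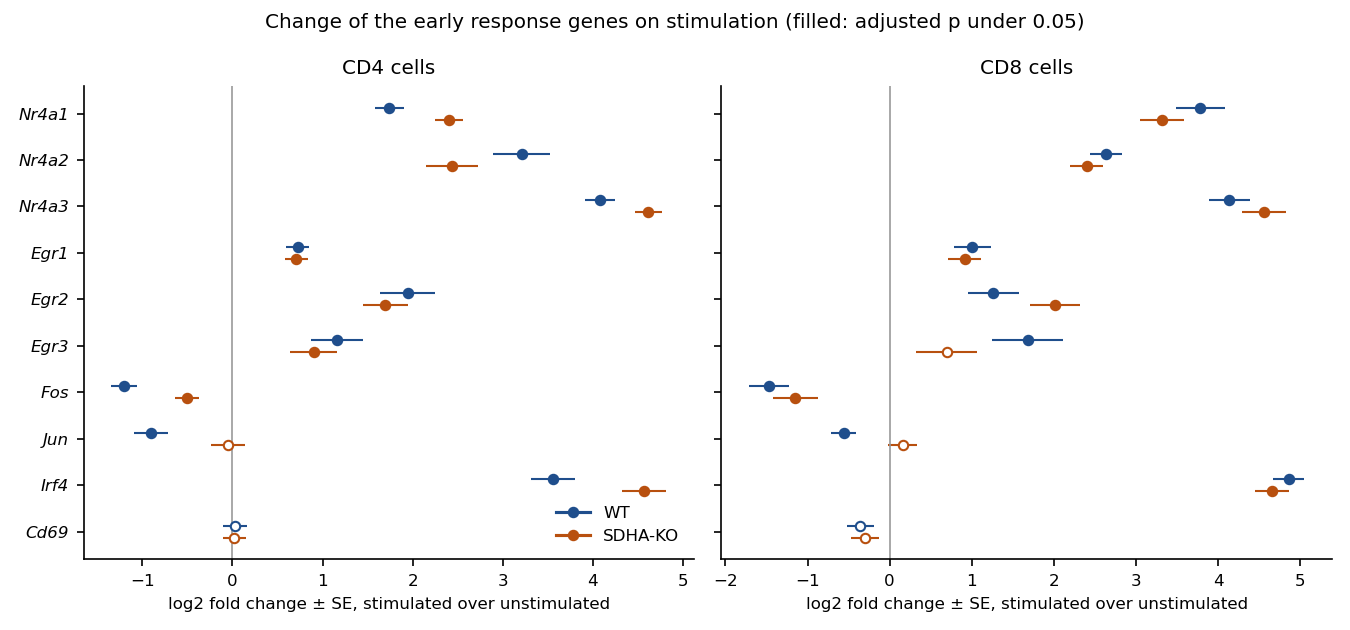
Log2 fold change of each gene between stimulated and unstimulated cells, with its SE, in WT and SDHA-KO and in CD4 and CD8 cells, from the edgeR fit. The NR4A genes and Irf4 lie between 1.74 and 4.86, the EGR genes between 0.70 and 2.01, and Fos, Jun and Cd69 near or below 0.

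Before stimulation, 1 of the 10 genes differed between SDHA-KO and WT in each class. Jun was lower in SDHA-KO CD4 cells, at 58.2 and 105.2 CPM against 162.0 and 175.0 CPM in WT (−1.04, SE 0.19, edgeR adjusted p = 0.0312), and lower in the SDHA-KO CD8 class, at 34.5 and 61.9 CPM against 119.4 and 116.9 CPM (−1.29, SE 0.18, edgeR adjusted p = 0.00946). Both WT libraries lay above both SDHA-KO libraries. The unstimulated CD4 class also differed in make-up between genotypes. Cd4 lay at 154.7 and 154.8 plain CPM in WT and at 549.6 and 630.6 in SDHA-KO. Cells with Cd4 UMIs but no Cd8a, Cd8b1 or Trdc UMI made up 55.8% and 56.8% in WT, 82.1% and 79.2% in SDHA-KO. No part of the difference in Jun is assigned to this. The background was 0.526% of genes called higher and 0.575% lower in CD4, and 0.283% and 0.664% in CD8 cells. No member was called higher in either class by edgeR or DESeq2. At an unadjusted edgeR p below 0.05 there were 0 higher in CD4 and 2 in CD8 cells, Egr1 and Egr3. Of all genes, 2282 of 14264 in CD4 and 1852 of 13095 in CD8 cells had such a p, in either direction. Without the TMM correction the share of CD8 calls that were higher moved from 29.8% to 73.0%, with Jun still called lower. Jun lost its call without either unstimulated WT library, at −1.08 (edgeR adjusted p = 0.178) or −0.97 (0.257) in CD4 cells and at −1.26 (0.152) or −1.30 (0.182) in CD8 cells. Without unstimulated SDHA-KO replicate 2, Irf4 was also called lower in CD4 cells (−1.47, edgeR adjusted p = 0.0315). With all libraries Irf4 stood at −0.59 (SE 0.32, edgeR adjusted p = 0.4).

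Most unstimulated cells were of the naive subtype, and naive cells were compared in a fit of only the 4 libraries compared. The number of calls there is not set against that of the 8-library fit, since the fit differs as well as the cells. Naive CD4 cells held Jun at 157 and 161 plain CPM in WT and at 45.9 and 94.6 in SDHA-KO (−1.24, SE 0.17, edgeR adjusted p = 0.000111), with 1.12% of genes called higher and 2.45% lower there. Jun in naive CD8 cells lay at 94.6 and 95.0 plain CPM in WT and at 23.4 and 51.5 in SDHA-KO (−1.43, SE 0.17, edgeR adjusted p = 1.23e-06). Jun was thus the 1 member called in naive CD4 cells. In naive CD8 cells 9 members could be tested (not Egr2), and 2 were called higher and 1 lower, against 1.33% and 3.67% of all genes. The higher ones were Egr1, at 20.1 and 20.8 plain CPM in SDHA-KO against 8.83 and 7.79 in WT (1.19, SE 0.23, edgeR adjusted p = 0.00104), and Egr3, at 8.03 and 9.92 against 1.99 and 3.79 (1.45, SE 0.37, edgeR adjusted p = 0.0158). Egr1 was counted in 23 and 21 naive SDHA-KO CD8 cells and Egr3 in 12 and 14, so the naive CD8 values rest on few cells. In the full unstimulated CD8 class Egr1 (17.4 and 20.1 against 9.71 and 10.7 CPM) and Egr3 (7.79 and 9.18 against 2.00 and 4.68 CPM) had the same order without overlap but were not called (edgeR adjusted p = 0.177 and 0.318). Trdc UMIs were in 19.7% and 15.2% of unstimulated SDHA-KO and 3.9% and 3.4% of WT CD8-class cells.

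Treg cells, the regulatory subtype, were labelled only among unstimulated CD4 cells and held Nr4a1 at a higher CPM than naive cells of the same library. Nr4a1 lay at 52.6 and 26.4 plain CPM in WT Treg cells against 13.1 and 12.9 in WT naive CD4 cells. In SDHA-KO it lay at 27.9 and 36.8 against 9.58 and 16.1. Each Treg sum held 73 to 92 cells and 14 to 34 UMIs of Nr4a1, and the difference was not tested.

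After stimulation, the sums of SDHA-KO CD4 cells held more Nr4a1 and Nr4a3 and less Nr4a2 than those of WT CD4 cells, and the other 7 members were not called. Background calls were many: 22.7% of genes were higher and 20.5% lower, and the median log2 fold change was 0.13 over the members and −0.00 over all genes, so 2 higher and 1 lower of 10 is near the background share. Nr4a3 lay at 180.2 and 219.5 CPM in SDHA-KO against 119.8 and 113.3 CPM in WT (0.78, SE 0.11, edgeR adjusted p = 0.000193). Nr4a1 lay at 75.2 and 91.9 CPM against 58.1 and 55.9 CPM (0.55, SE 0.13, edgeR adjusted p = 0.0045). For both, each SDHA-KO library was above each WT library. Nr4a2 lay at 28.2 and 40.0 CPM against 59.3 and 49.8 CPM (−0.67, SE 0.22, edgeR adjusted p = 0.026), with each SDHA-KO library below each WT library. The 3 receptors of 1 family therefore did not move together. Other markers moved with genotype in stimulated CD4 cells. The 2 regulatory T cell markers summed to 99.2 and 81.6 CPM in SDHA-KO against 29.4 and 21.9 CPM in WT, nearly all of it Ikzf2, with Foxp3 at 2.38 and 2.49 against 1.74 and 0.688 CPM. The 6 myeloid markers summed to 144 and 158 against 83.5 and 78.7 CPM, with 2 to 4 of them at 0 in each library. Their part in the NR4A values was not tested. The call of Nr4a2 was fragile: DESeq2 gave −0.67 with an adjusted p of 0.335, and the call was lost without unstimulated WT replicate 1 or 2 (0.0511 and 0.0513), stimulated WT replicate 1 (−0.53, 0.167) or 2 (−0.78), or stimulated SDHA-KO replicate 1 (−0.43, 0.124).

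Of the 7 others, Irf4 came closest to a call, at 267.5 and 230.8 CPM in SDHA-KO against 177.2 and 192.7 CPM in WT (0.43, SE 0.18, edgeR adjusted p = 0.0758), without overlap. It was called without unstimulated SDHA-KO replicate 1 or 2, or stimulated SDHA-KO replicate 2 (0.55). Fos lay at 22.9 and 19.6 CPM against 18.1 and 15.4 CPM (0.34, SE 0.13, edgeR adjusted p = 0.0524), also without overlap, and was called without unstimulated WT replicate 1 or 2, stimulated WT replicate 1 or stimulated SDHA-KO replicate 2. Egr1 (32.6 and 36.2 against 35.8 and 34.7 CPM), Egr3 (12.1 and 17.3 against 16.4 and 14.7 CPM) and Cd69 (79.8 and 103.8 against 105.7 and 94.7 CPM) overlapped between genotypes. Egr2 lay at 12.1 and 9.90 CPM against 9.79 and 8.11 CPM (0.29, SE 0.19, edgeR adjusted p = 0.242), and Jun at 75.5 and 83.0 CPM against 91.3 and 88.8 CPM (−0.18, SE 0.18, edgeR adjusted p = 0.438). Neither overlapped, and neither passed the test.

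In the stimulated CD8 class the called members were others: Egr1 and Egr2 were higher and Jun and Irf4 lower in SDHA-KO, against 26.8% of all genes higher and 23.5% lower. The median was 0.05 over the members and −0.01 over all genes, and 2 higher and 2 lower of 10 is near the background share. Egr1 lay at 29.8 and 41.1 CPM in SDHA-KO against 18.4 and 22.8 CPM in WT (0.77, SE 0.15, edgeR adjusted p = 0.0012). Egr2 lay at 9.40 and 8.67 CPM against 4.82 and 4.83 CPM (0.91, SE 0.18, edgeR adjusted p = 0.00167). Both EGR genes lay above WT in each SDHA-KO library. Jun lay at 55.8 and 51.6 CPM against 83.8 and 76.5 CPM (−0.58, SE 0.14, edgeR adjusted p = 0.00572) and Irf4 at 114.7 and 118.2 CPM against 141.2 and 157.2 CPM (−0.36, SE 0.10, edgeR adjusted p = 0.0141), both below WT in each SDHA-KO library. The call of Irf4 was lost without stimulated WT replicate 2 (−0.30, edgeR adjusted p = 0.11). Nr4a1 (39.3 and 53.1 against 32.2 and 40.4 CPM, edgeR adjusted p = 0.0671), Nr4a2 (46.8 and 65.4 against 61.7 and 61.6 CPM), Nr4a3 (75.4 and 107.8 against 75.4 and 83.4 CPM), Egr3 (9.35 and 18.6 against 10.6 and 11.8 CPM), Fos (11.0 and 8.91 against 10.5 and 11.1 CPM) and Cd69 (60.9 and 83.6 against 99.0 and 77.0 CPM) overlapped. Some of these values turned on a single SDHA-KO library: without replicate 1, Nr4a1 (0.53), Nr4a3 (0.43) and Egr3 (0.72) were called higher, and without replicate 2, Nr4a2 (−0.41) and Cd69 (−0.55) were called lower. Without stimulated WT replicate 2, Nr4a1 was also called (0.50).

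The CD8 class of SDHA-KO was a mixture, and its members' levels differed with Trdc. Cells without a Trdc UMI numbered 209 and 174 in stimulated SDHA-KO and 813 and 793 in stimulated WT, and those with one numbered 302 and 222 against 31 and 41. Nr4a1 lay at 70.4 and 98.4 plain CPM in SDHA-KO cells without a Trdc UMI and at 28.4 and 32.2 in those with one, and in WT cells without one it lay at 38.3 and 47.2. Nr4a3 lay at 143 and 185 without and at 49.7 and 75.5 with a Trdc UMI in SDHA-KO, against 91.4 and 96.8 in WT cells without. Irf4 lay at 159 and 166 without and 111 and 107 with a Trdc UMI in SDHA-KO, and at 170 and 182 in WT cells without one. In each SDHA-KO library these 3 genes were lower in the cells with a Trdc UMI. Median UMIs per cell were 29193 and 30121.5 with and 31524 and 29907.5 without a Trdc UMI, and means were 38864 and 39273 against 34239 and 33699, so on the mean the cells with one were deeper in both libraries. The part of depth was not tested.

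**Figure D3:**
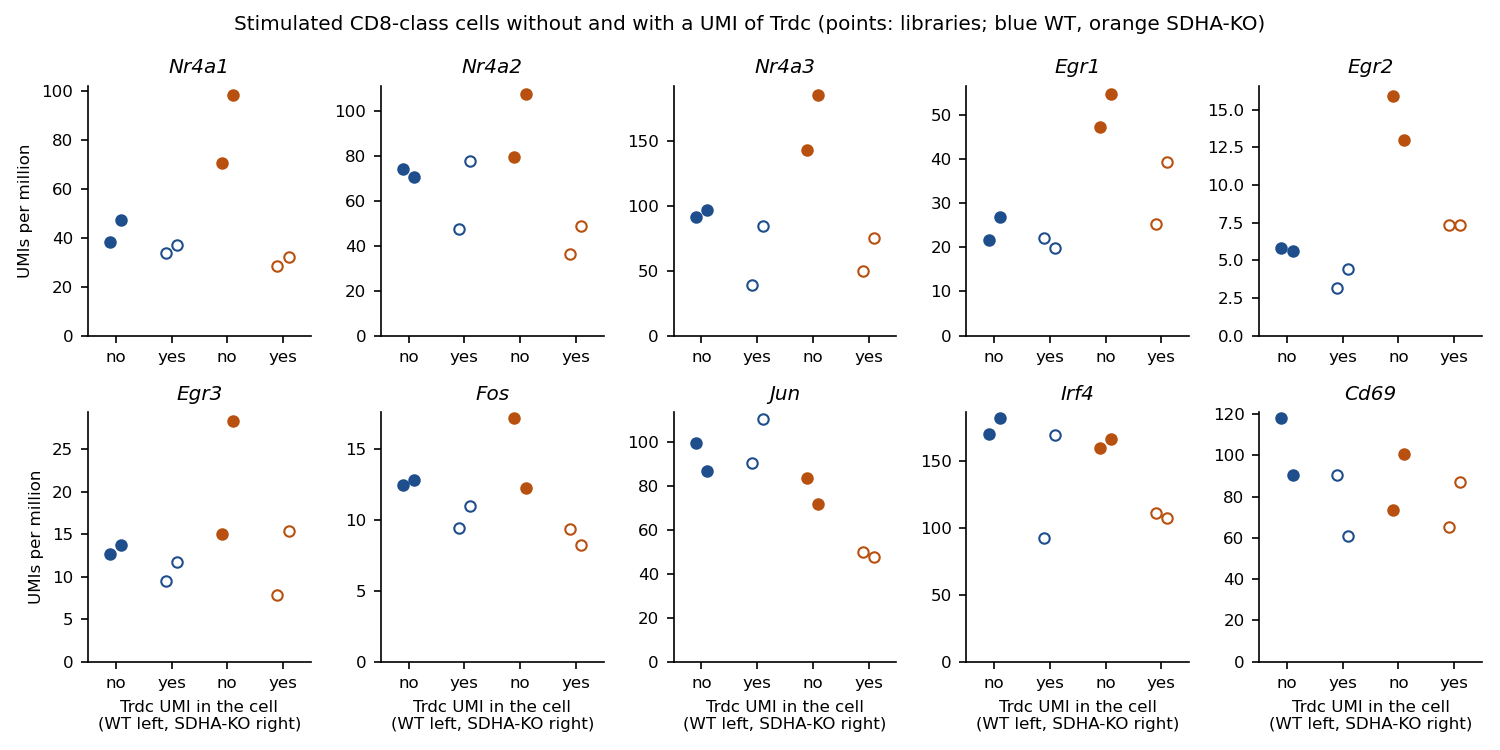
Plain CPM of each gene in the stimulated CD8 class, split by whether a cell held a Trdc UMI, 1 point a library, WT and SDHA-KO. Every gene shown is lower with a Trdc UMI than without one in both SDHA-KO libraries, and Nr4a1 and Nr4a3 without one lie above both WT libraries.

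When the comparison was restricted to cells with a UMI of their own coreceptor, none of the other coreceptor and none of Trdc, 6 members were called higher in stimulated SDHA-KO CD8 cells by edgeR and 0 lower, with 0 lower at an unadjusted p below 0.05. Of all genes 25% were higher and 24.4% lower there, and the median was 0.72 over the members and −0.03 over all genes. This left 736 and 709 WT and 169 and 147 SDHA-KO cells, in which the log2 fold change of Sdha was −1.42. Median UMIs per cell were 13201.5 and 13329 in these WT cells and 33462 and 30688 in these SDHA-KO cells. The part of depth in these values was not tested. Nr4a1 lay at 76.8 and 105 plain CPM in SDHA-KO against 39.2 and 45.4 in WT (1.12, SE 0.13, edgeR adjusted p = 1.57e-05), and Nr4a3 at 154 and 197 against 91.8 and 92.9 (0.95, SE 0.10, edgeR adjusted p = 7.99e-06). Nr4a2 lay at 89.2 and 118 against 74.2 and 70.4 (0.54, SE 0.11, edgeR adjusted p = 0.00109), the opposite sign to its value in the whole CD8 class. All 3 receptors were higher without overlap. Egr1 lay at 43.9 and 59.3 against 22.6 and 25.7 (1.11, SE 0.14, edgeR adjusted p = 2.36e-05), Egr2 at 18.4 and 12.8 against 5.84 and 5.598 (1.49, SE 0.24, edgeR adjusted p = 0.000166) and Egr3 at 16.8 and 31.5 against 12.8 and 13.3 (0.89, SE 0.24, edgeR adjusted p = 0.00647). The calls of Jun and Irf4 were lost, at −0.24 and −0.04. Irf4 lay at 159 and 175 plain CPM in SDHA-KO against 171 and 180 in WT, which overlapped.

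The same restriction changed no call in stimulated CD4 cells. It left 637 and 762 SDHA-KO and 487 and 542 WT cells, with 21.2% of genes higher and 19.8% lower. Median UMIs per cell were 23579 and 23563 in these SDHA-KO cells against 14655 and 14499.5 in WT. The log2 fold change was 0.55 for Nr4a1 (SE 0.14, edgeR adjusted p = 0.00923), 0.76 for Nr4a3 (SE 0.10, edgeR adjusted p = 7.91e-05) and −0.77 for Nr4a2 (SE 0.21, edgeR adjusted p = 0.0109). Nr4a2 lay at 28.5 and 40.4 plain CPM in SDHA-KO against 62.3 and 54.2 in WT.

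**Figure D4:**
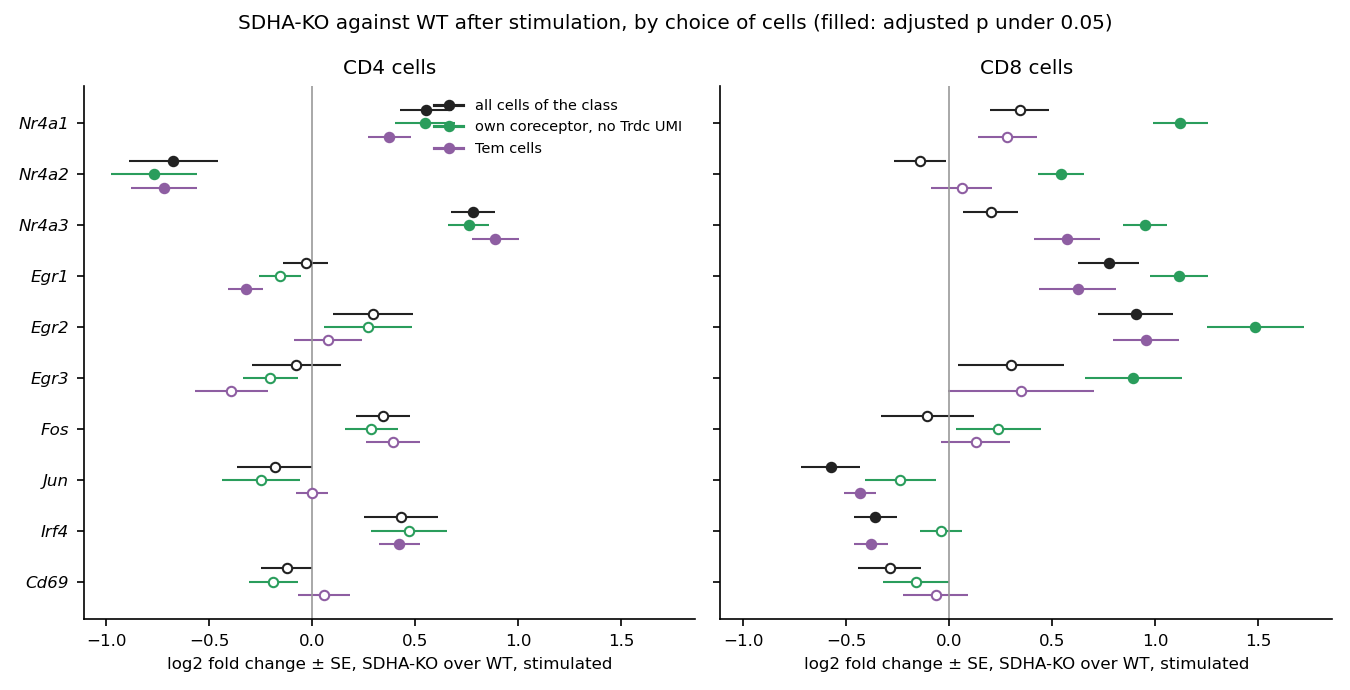
Log2 fold change of each gene between stimulated SDHA-KO and WT, with its SE, in CD4 and CD8 cells. It is shown over all cells of the class, over coreceptor-positive cells without a Trdc UMI and over Tem cells. From all cells to the coreceptor-positive ones the CD4 values hardly differ, while in CD8 cells Nr4a1 goes from 0.34 to 1.12, Nr4a2 from −0.14 to 0.54 and Nr4a3 from 0.20 to 0.95.

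Whether the genotype difference itself differed between CD4 and CD8 cells was tested in 1 fit over both classes of the 4 stimulated libraries. Over the whole classes, 3 members were called higher in CD8 minus CD4 and 4 lower, against 11.9% and 10.4% of all genes. Without the TMM correction the share of such calls that were higher moved from 53.3% to 39.5%, and Egr2 lost its call (0.52), leaving 2 members higher. The higher ones were Nr4a2 (0.52, SE 0.10, edgeR adjusted p = 0.00818), Egr1 (0.79, SE 0.15, edgeR adjusted p = 0.00769) and Egr2 (0.59, SE 0.16, edgeR adjusted p = 0.0375). The lower ones were Nr4a3 (−0.60), Irf4 (−0.80, SE 0.09, edgeR adjusted p = 0.00126), Jun (−0.40) and Fos (−0.48). Among coreceptor-positive cells without Trdc, 5 were called higher and 1 lower, against 5.32% and 5.09% of all genes. Those 5 were Nr4a1 (0.59), Nr4a2 (1.34), Egr1 (1.29), Egr2 (1.21) and Egr3 (1.11), and Irf4 was still lower (−0.49, SE 0.12, edgeR adjusted p = 0.0308). Nr4a3 had no called difference between the classes in those cells (0.21, edgeR adjusted p = 0.141), and its value over the whole classes had the opposite sign. Nr4a2 showed the widest contrast: log2 −0.77 in CD4 and 0.54 in CD8 cells. Several of the calls over the whole classes rested on single libraries: that of Nr4a2 was lost without stimulated WT replicate 1, that of Egr2 without stimulated WT replicate 1 or stimulated SDHA-KO replicate 1 or 2, that of Jun without stimulated WT replicate 1 or stimulated SDHA-KO replicate 2, and that of Fos without stimulated WT replicate 2 or stimulated SDHA-KO replicate 1 or 2.

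A second question was whether the genotype difference changed with stimulation, tested as the interaction in the 8-library fit. In CD4 cells 2 members were called higher, against 10.9% of all genes (10.5% were lower): Jun (0.85, SE 0.26, edgeR adjusted p = 0.0408) and Fos (0.70, SE 0.19, edgeR adjusted p = 0.0266). In CD8 cells 1 member, Jun, was called higher (0.72, SE 0.23, edgeR adjusted p = 0.0458), against 13.5% higher and 10.2% lower. No member was called lower in either class by edgeR or DESeq2, and 0 were below an unadjusted p of 0.05. Without the TMM correction the share of CD8 interaction calls that were higher moved from 56.9% to 32.7% and Jun was not called. Jun was lower in unstimulated SDHA-KO, and that gap was smaller after stimulation. In CD4 cells the call of Fos was lost without unstimulated WT replicate 1, unstimulated SDHA-KO replicate 1 or stimulated WT replicate 2, and that of Jun without either unstimulated WT library, either stimulated WT library or stimulated SDHA-KO replicate 2. The CD8 call of Jun was lost without any WT library and without replicate 1 of either SDHA-KO group (0.35 without that of the unstimulated group). Irf4 (1.02, SE 0.37, edgeR adjusted p = 0.0699) and Nr4a1 (0.67, SE 0.23, edgeR adjusted p = 0.0618) in CD4 cells did not pass the test, nor did Nr4a3 (0.54, SE 0.26, edgeR adjusted p = 0.163), so the higher Nr4a1 and Nr4a3 of stimulated SDHA-KO CD4 cells were not shown to differ from the unstimulated difference.

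Within both memory subtypes of the authors, CD4 cells of SDHA-KO held more Nr4a3 and Irf4 and less Nr4a2, while Nr4a1 was called in Tem cells alone. The subtypes were not tested against each other, and the log2 fold change of Nr4a1 was larger in Tcm cells. In Tcm (central memory) CD4 cells 2 members were called higher and 1 lower, against 12.8% and 12.3% of genes. Nr4a3 lay at 289 and 459 plain CPM in SDHA-KO against 191 and 213 in WT (0.68, SE 0.18, edgeR adjusted p = 0.0258), Irf4 at 456 and 459 against 269 and 296 (0.48, SE 0.09, edgeR adjusted p = 0.00486) and Nr4a2 at 46.2 and 65.6 against 85.4 and 70.5 (−0.69, SE 0.17, edgeR adjusted p = 0.0179). Nr4a1 lay at 82.4 and 113 against 58.9 and 64.5 in Tcm cells (0.45, SE 0.15, edgeR adjusted p = 0.0512). In Tem CD4 cells 3 were called higher and 2 lower, against 15.5% and 16.1%. There Nr4a3 lay at 190 and 224 against 107 and 87.8 (0.89, SE 0.11, edgeR adjusted p = 0.00175), Irf4 at 279 and 237 against 163 and 173 (0.42, SE 0.10, edgeR adjusted p = 0.0177) and Nr4a1 at 82.0 and 98.8 against 64.4 and 57.4 (0.37, SE 0.10, edgeR adjusted p = 0.0325). Nr4a2 was again lower in Tem cells, at 29.6 and 41.9 against 56.4 and 46.6 (−0.72), and Egr1 was lower there, at 35.9 and 40.4 against 42.4 and 40.9 (−0.32, SE 0.08, edgeR adjusted p = 0.0268). Irf4 was called within each subtype, and over the class it was called when only the 4 libraries compared were fitted (0.43, edgeR adjusted p = 0.00884) but not in the fit of 8.

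In the CD8 class the called members were not the same in Tcm as in Tem cells, and no difference between the subtypes was tested. In Tcm cells 0 members were called higher by edgeR (0 at an unadjusted p below 0.05) and 3 lower, against 14.4% and 13.5% of genes: Nr4a2, at 57.3 and 80.7 plain CPM in SDHA-KO against 104 and 95.8 in WT (−0.66, SE 0.16, edgeR adjusted p = 0.0202), Jun, at 96.4 and 76.5 against 138 and 129 (−0.72), and Irf4, at 184 and 172 against 212 and 227 (−0.40). In Tem cells 3 were called higher and 2 lower, against 17.1% and 16.3%. The higher ones were Nr4a3, at 82.8 and 117 against 58.5 and 67.1 (0.57, SE 0.16, edgeR adjusted p = 0.034), Egr1, at 33.7 and 49.7 against 23.0 and 27.2 (0.62), and Egr2, at 11.3 and 9.90 against 5.11 and 5.11 (0.95, SE 0.16, edgeR adjusted p = 0.00567). Jun (−0.44) and Irf4 (−0.38) were lower in Tem cells as in Tcm cells. The subtypes were not separated from Trdc here, and the part of Trdc-positive cells in these values was not tested.

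Levels also moved with the mitochondrial share of a cell. In stimulated WT CD4 cells, those with under 10% mitochondrial UMIs held medians of 59713.5 and 59710.5 UMIs and those at or over 10% held 10690 and 10633. Cd69 lay at 83.6 and 76.7 plain CPM in the former and 206.6 and 176.7 in the latter, and Jun at 75.2 and 70.2 against 169.5 and 171.3. Nr4a3 lay at 113.5 and 99.0 against 178.2 and 187.8, while Nr4a1, at 63.4 and 58.4 against 61.4 and 61.7, overlapped. Cells under 10% made up 39.1% and 41.0% of stimulated WT CD4 cells. A sum weighs each cell by its UMIs, so these deeper cells weigh more in the WT sums than their number. Since far more SDHA-KO than WT cells were under 10%, the genotypes were also compared within the cells under 10% alone. Cells at or over 10% were not compared between genotypes. Nr4a1, Nr4a2 and Nr4a3 kept their CD4 calls, and Egr1 was called lower in SDHA-KO CD4 cells (−0.30, edgeR adjusted p = 0.0487). In the CD8 class Nr4a3 was called higher (0.71, edgeR adjusted p = 0.0019) and Jun lost its call (−0.37, edgeR adjusted p = 0.0721). The share of all genes called within these cells is not given, so these calls are not read as results about the members.

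The share of cells with a UMI of each gene was compared after thinning every cell to 5000 UMIs, which left out 2 to 99 cells per class and library. Nr4a3 was found in 1.80% and 2.59% of unstimulated WT, 2.17% and 2.75% of unstimulated SDHA-KO, 37.3% and 35.7% of stimulated WT and 47.2% and 54.6% of stimulated SDHA-KO CD4 cells. Without thinning these shares were 2.79% and 3.89%, 2.51% and 4.41%, 61.6% and 59.6%, and 69.7% and 78.3%. Thinned shares of Nr4a1 in CD4 cells were 6.59% and 4.84%, 4.62% and 5.83%, 21.0% and 20.5%, and 24.9% and 34.3% in the same order of groups. For both genes the stimulated SDHA-KO CD4 libraries were above the WT ones in the share of cells as well as in CPM. Nr4a2 was found in 24.7% and 20.1% of stimulated WT and 11.6% and 15.03% of stimulated SDHA-KO CD4 cells. Irf4 was found in 60.3% and 61.2% against 64.6% and 60.4%, so its genotypes overlapped in share. As a background, Cd79a, a B cell gene, was found in 0% to 1.12% of thinned cells per class and library, where a count of 0 does not show absence. Thinned shares of Egr2 in unstimulated CD4 cells (0.480% to 1.23%) were near that level and are read as background.

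**Figure D5:**
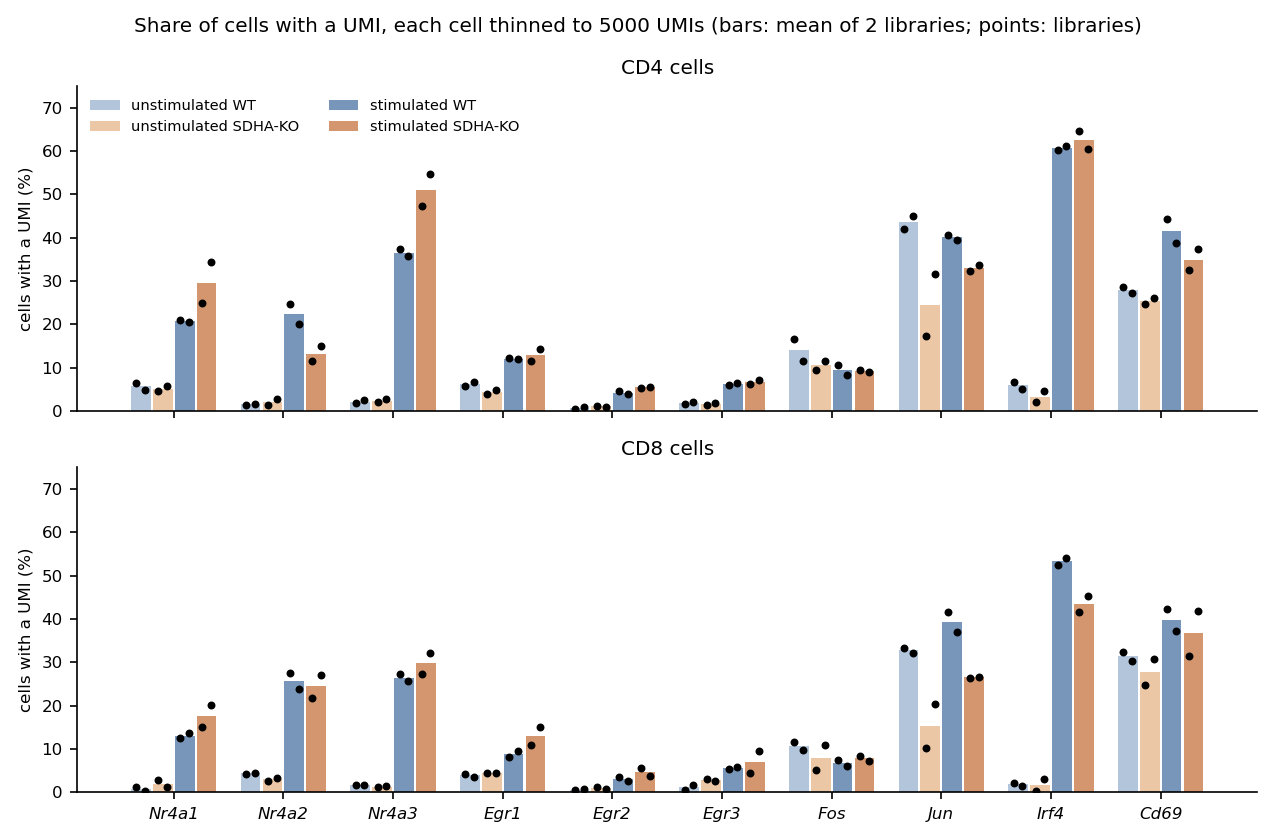
Percent of cells with at least 1 UMI of each gene after thinning every cell to 5000 UMIs, 1 point a library, in CD4 and CD8 cells. Irf4 lies above 40% in every stimulated library and below 7% in every unstimulated one, and Nr4a3 lies above 25% in every stimulated library and below 3% in every unstimulated one.

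The members were also counted within single cells. Of the 10 genes, a thinned stimulated CD4 cell held a UMI of 2.62 and 2.47 genes on average in WT and of 2.46 and 2.71 in SDHA-KO, against 1.12 and 1.08 in unstimulated WT and 0.686 and 0.931 in unstimulated SDHA-KO. Cells with none of the 10 made up 28.9% and 30.0% of unstimulated WT and 53.8% and 39.8% of unstimulated SDHA-KO CD4 cells, and 5.01% to 7.81% of the stimulated CD4 cells. Of the 45 pairs of members, Nr4a1 and Nr4a3 had the highest mean phi coefficient, a measure of association between presence of the one and of the other, at 0.25 and a range of 0.21 to 0.29 over the 8 sums of stimulated cells. Among thinned WT CD4 cells with a Nr4a1 UMI 58.8% and 63.4% also had one of Nr4a3, against 28.6% and 31.6% of those without. In SDHA-KO CD4 cells these shares were 69.3% to 70.6% and 39.5% to 46.9%. Pairs with Jun lay near 0 or below it, the lowest being Jun with Egr2 at −0.04. These coefficients describe cells of the same libraries and carry no test.

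Across the authors' finer clusters with at least 50 cells, Nr4a3 ranged from 33.8 plain CPM (CD8 Tem2, stimulated SDHA-KO replicate 1) to 516 (CD4 Tcm4, stimulated SDHA-KO replicate 2), and Irf4 from 88.3 (CD8 Tem2) to 501 (CD4 Tcm3), both in stimulated SDHA-KO replicate 1. Over the 52 sums of stimulated cells by library, class and cluster with at least 50 cells, on log2(CPM + 1) and with genes averaging under 20 CPM left out, the gene whose level was most like that of Nr4a1 was Nr4a3 (Pearson r = 0.82), followed by Zap70 (0.78) and Lcp2 (0.77). For Nr4a3 they were Mcu (0.87), Lrmp (0.85) and Mdfic (0.85), and for Nr4a2 Zfp131 (0.78), Zfp827 (0.77) and Malt1 (0.76). For Irf4 they were Camk2d (0.90), Hivep2 (0.88) and Sla (0.87). For Egr2 they included Egr1 (0.66), and for Egr3 the closest was Kdm6b (0.60). The genes most like Jun were Ctse (0.90), Dapp1 (0.89) and Bmt2 (0.89), those most like Fos were Retreg1 (0.67), Ets1 (0.66) and Parp9 (0.66), and those most like Cd69 were Lmbrd1 (0.91), Tasor2 (0.91) and Tmem156 (0.91). The sums share libraries and depth, so these are descriptions.

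Other genes of the pathway were read from lists that group them by role. In stimulated against unstimulated WT CD4 cells, 6 of 9 AP-1 and BATF partners were higher and 2 lower, with a median log2 fold change of 1.51 against 0.08 over all genes. Atf3, an ATF family partner of Jun, had 0 UMIs in unstimulated WT CD4 cells and was at least 158-fold higher after stimulation, taking 3 UMIs in 1 library as the floor. In WT CD8 cells 5 of 9 were called, all higher, and Batf3, a BATF family AP-1 factor, had 0 UMIs before and was at least 142-fold higher. Fos and Jun were thus lower at 48 h while most other AP-1 genes of the list were higher. Of 9 MAP kinase phosphatase and ERK feedback genes, 6 were higher and 2 lower in WT CD4 and 4 higher and 3 lower in WT CD8 cells. Dusp10, a MAP kinase phosphatase, was among the lower ones in CD4 cells (−3.07, SE 0.18). Of 8 other immediate early genes, 1 was higher and 5 lower in CD4 (median −0.43) and 2 higher and 4 lower in CD8 cells (median −0.48), Zfp36, which destabilizes cytokine mRNA, falling by 2.50 on the log2 scale in CD8 cells. On the egress side, S1pr1 was lower in both classes (−6.27 in CD4 and −6.29 in CD8 cells), and so was its activator Klf2 (−5.82 and −6.74). Of 4 activation surface genes 3 were higher in both classes; Tfrc, the transferrin receptor, rose by 4.29 (SE 0.10) in CD4 cells, and Il2ra, the IL-2 receptor α chain, had 3 UMIs before and 18904 after stimulation in CD8 cells, a ratio of 1395 with a 95% counting interval of 477 to 6765. Of 9 NF-κB genes 4 were higher and 4 lower in CD4 and 3 and 4 in CD8 cells, and of 4 NFAT genes 2 were higher and 1 lower in both. Of 3 EGR partners 2 were higher and 1 lower in CD4 cells, and of the 2 tested in CD8 cells 1 was called, lower.

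Between stimulated SDHA-KO and WT the lists were read against the 22.7% of all genes higher and 20.5% lower in CD4 cells and the 26.8% and 23.5% in CD8 cells. Several counts below are near those shares, and no set was tested. In CD4 cells 6 of 9 NF-κB genes were called, all higher (median 0.58), with Nfkbia, the inhibitor that NF-κB induces, at 1.16 (SE 0.09). Of the 9 AP-1 partners 2 were higher and 4 lower in CD4 cells and 4 higher and 1 lower in CD8 cells, where Batf lay at 105.1 and 68.7 CPM in SDHA-KO against 30.6 and 34.2 CPM in WT (1.43, SE 0.16, edgeR adjusted p = 2.91e-05). Fosb, a Fos family member, was lower in both classes (−0.79 and −0.95). Of the 9 MAP kinase phosphatase and ERK feedback genes 2 were higher and 1 lower in CD4 and 5 and 1 in CD8 cells. Dusp5, a nuclear ERK phosphatase, lay at 109.2 and 102.0 CPM in SDHA-KO against 38.1 and 42.7 CPM in WT CD4 cells (1.39, SE 0.09, edgeR adjusted p = 1.73e-06), and Dusp2 was higher in CD8 cells (1.23). Ier3, an early gene of stress and survival, lay at 18.1 and 10.3 CPM against 68.6 and 68.7 CPM in CD4 cells (−2.28, SE 0.20, edgeR adjusted p = 8.78e-06) and was also lower in CD8 cells (−1.08). Klf2, which keeps T cells quiescent, was higher in SDHA-KO CD4 cells, at 45.2 and 32.6 CPM against 13.7 and 13.3 CPM (1.52, SE 0.13, edgeR adjusted p = 1.05e-05). Of 6 heat shock genes, which respond to stress on proteins, 3 were called in CD4 cells (median 0.50) and 4 in CD8 cells (median 0.91), all higher, with Hsph1 at 1.37 in CD8 cells. Of the 9 NF-κB genes 4 were called in the CD8 class, all higher (median 0.20). Both EGR partners tested there were higher (median 0.56), and 1 of 3 in CD4 cells. Of 4 NFAT genes 2 were lower in CD4 and 1 in CD8 cells. Of 8 other immediate early genes 3 were higher and 2 lower in CD4 and 4 and 2 in CD8 cells. The part of stress in the values of the members was not tested.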

How the data were processed

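The 8 libraries, 2 in each of 4 groups, were droplet 3′ single-cell RNA-seq of mouse splenic T cells. The authors deposited a matrix of raw UMI counts for 20170 genes in 12846 cells; per the labels reads were processed with bcl2fastq and Cell Ranger on mm10 (versions not given in the sources used here), and per the paper's methods cells with very many detected genes and clusters without CD3 genes were removed. The deposited cell table gives the class and subtype the authors assigned and the percent of UMIs on mitochondrially encoded genes, which the authors computed per cell. Of 12823 distinct barcodes, 23 occurred in more than 1 library. Doublets were not called here. UMIs were summed per library and class, filtered (filterByExpr, minimum count 10, minimum total 15), scaled by TMM and tested with edgeR 4.0.16 (quasi-likelihood, Benjamini-Hochberg over all genes tested) in 1 fit of 8 libraries per class and 1 fit of 2 classes in the 4 stimulated libraries with library as a term; DESeq2 1.42.0 and limma 3.58.1 on mean log values were alternatives, in R 4.3.3. The spread between replicates was 8.73% (CD4) and 8.24% (CD8), with 4 residual degrees of freedom (2 in the fit over both classes); the smallest CD8 sum held 3640136 UMIs, where a gene at 20 CPM has 72.8 UMIs and a counting error of 11.7%. An exact permutation test of 2 against 2 cannot go below p = 0.333 and was not used. Fits within naive, Tcm or Tem cells used only the 4 libraries compared. On simulated counts for stimulated SDHA-KO against WT, the script recovered 100% of 2-fold changes in CD4 (13648 genes) and 97% in CD8 sums (12511 genes), and 36% and 34% of changes of 0.5 on the log2 scale. Every simulated gene had the same spread, and only chosen genes away from the lowest levels were changed. Spread and the number of changed genes differ in the real libraries, so these shares do not give the power for the members. Replicates differed by more than counting noise (chi-square per degree of freedom 2.06 to 17.7), so no library was counted as deposited in duplicate. The members and lists were chosen with earlier results of these data known; all 10 members are given in every comparison, and from the lists together the 3 called genes with the largest rise and the 3 with the largest fall, of those with a mean of at least 20 CPM. Promoters are RefSeq's on GRCm38.p6; Python 3.11.15, NumPy 2.4.6, pandas 2.3.3, SciPy 1.17.1 and Matplotlib 3.10.9 were used. Alternatives were another normalization, no filter, a replicate block, thinned sums, subsets of cells and leaving out each library. Results that need 2 listed genes are not reported here.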

Additional observations from a re-analysis of the deposited data

Results flagged for a closer look

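The difference between SDHA-KO and WT changed with stimulation for Fos in CD4 cells (interaction 0.70 on the log2 scale, SE 0.19, edgeR adjusted p = 0.0266), where each SDHA-KO library was below each WT library before stimulation and above each after it. It changed for Jun in CD4 cells (0.85, SE 0.26, edgeR adjusted p = 0.0408) and in CD8 cells (0.72, SE 0.23, edgeR adjusted p = 0.0458), where all SDHA-KO libraries were below all WT libraries at both times. Leaving out single libraries ended each of these calls, as given above, and the unstimulated SDHA-KO libraries differed from each other, Jun lying at 58.2 and 105.2 CPM in CD4 cells.

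The difference between stimulated SDHA-KO and WT was not the same in CD8 as in CD4 cells for 7 members. CD8 minus CD4 was 0.52 for Nr4a2, 0.79 for Egr1 and 0.59 for Egr2, and it was −0.60 for Nr4a3, −0.48 for Fos, −0.40 for Jun and −0.80 for Irf4. In coreceptor-positive cells without a Trdc UMI the values were 1.34 for Nr4a2, 1.29 for Egr1, 1.21 for Egr2 and −0.49 for Irf4, all called, while those of Nr4a3 (0.21), Fos (−0.04) and Jun (0.03) were not. Trdc UMIs were in 59.1% and 56.1% of stimulated SDHA-KO cells of the CD8 class.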

How the results depend on the processing

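Of the 1958 values of single members under alternatives, 1789 kept their direction and side of the threshold or had neither value called, 87 gained a call, 71 lost one and 11 turned sign with a call on at least 1 side; a further 107, counted among the 1789, turned sign with neither value called. With limma on mean log values per cell, stimulation gave 0.00032 for Jun in WT CD4 cells, 0.17 for Jun and 0.0060 for Fos in SDHA-KO CD4 cells, 0.13 for Jun and 0.18 for Cd69 in WT CD8 cells, and 0.17 for Cd69 in SDHA-KO CD8 cells. Among coreceptor-positive cells without Trdc, stimulated SDHA-KO against WT gave 0.54 for Nr4a2 in CD8 cells, and CD8 minus CD4 gave 0.59 for Nr4a1, 0.21 for Nr4a3 and 0.032 for Jun. Leaving out 1 library at a time, SDHA-KO stimulation of Jun in CD4 cells ranged from −0.39 to 0.47. The cause of these turns was not tested.

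The number of members called moved as follows. The share of all genes called is given above only for the main fits and for some subsets of cells. Counts under the other settings have no such background beside them and are not read as results about the members. For stimulated SDHA-KO against WT it was 3 in CD4 cells, and 5 with no filter on low counts, 6 with limma, 5 with only the 4 libraries compared, 5 in Tem cells and 2 to 5 without 1 library; in CD8 cells it was 4, and 4 to 7 without 1 library. For the unstimulated comparison it was 1 in each class, 0 to 2 in CD4 and 0 to 1 in CD8 cells without 1 library, and in CD8 cells 2 in coreceptor-positive cells, 2 with only the 4 libraries compared and 3 in naive cells. The CD4 interaction had 2 calls, and 5 with no filter, 4 thinned, 4 with limma and 0 to 4 without 1 library. The CD8 interaction had 1, and 0 without TMM, 0 thinned, 2 with limma and 0 to 2 without 1 library. CD8 minus CD4 had 7 calls, and 4 with DESeq2 and 4 to 6 without 1 library. Requiring at least a 2-fold change left 5 calls in SDHA-KO CD4 stimulation and 0 in stimulated SDHA-KO against WT in both classes, both interactions and CD8 minus CD4. Where a group was left with 1 library, that library was assumed to vary like the other groups.

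Same-numbered libraries did not deviate together (Pearson r from −0.16 to 0.04 over genes). This cannot exclude that they share a mouse or a day, so pairing by number is unknown and was not used in the main fits. With the replicate block, the CD8 interaction had 0 calls in place of 1, Fos in stimulated CD4 cells (0.34, edgeR adjusted p = 0.0364), Nr4a1 in stimulated CD8 cells (0.34, 0.0186) and Egr3 in SDHA-KO CD8 stimulation (0.67, 0.0441) gained a call, and no other call changed. Depth limits the members at low counts, such as Egr2 at 1.28 to 3.77 CPM in unstimulated cells.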
